A study of Mus musculus with 10 samples.

Results

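Transcript levels of 7 pluripotency transcription factors (Pou5f1, Sox2, Nanog, Sall4, Prdm14, Tfcp2l1 and Tbx3) were read from RNA-seq of E14, an established line of mouse embryonic stem cells. The genes were taken by symbol, by a rule that uses no measured value, though the list was chosen with earlier results of these data known. They are 7 of the 55487 genes in the tables, and all 7 were found by their Ensembl identifiers. The RNA-seq group had 3 replicates, and the labels do not say whether these were separate cultures, so the spread between them may be technical. All came from the same line, unperturbed, grown in medium with serum, LIF and inhibitors of GSK and of MEK1/2. The other 7 samples of the series map R-loops (hybrids of RNA with one strand of DNA) with MapR or BisMapR and are not analysed here. With 1 group there is no treated or control sample to set against it, and the comparisons below are between genes inside these libraries.

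Embryonic stem cells keep the ability to form every tissue of the embryo through a small set of transcription factors that bind DNA together and switch on each other's genes as well as their own. OCT4 (the product of Pou5f1) and SOX2 bind side by side on a composite DNA element, and NANOG, whose gene carries such an element, stabilises the state they set up. SALL4, TFCP2L1, TBX3 and PRDM14 support this circuit in the naive state, the state resembling the early epiblast that LIF with GSK and MEK inhibition favours.

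Promoter sequences are shown because one of them, that of Nanog, holds the composite element that OCT4 and SOX2 bind. RefSeq's promoter table (GRCm38.p6) held 4 of the 7 genes. Sall4, Prdm14 and Tbx3 had no entry. The 250 bases before the RefSeq start nearest to the annotated gene start are given 5′ to 3′ on the gene's own strand, which is the forward strand for all 4, with the matches to 5 searched motifs in capitals.
Nanog, chr6:122707239-122707488: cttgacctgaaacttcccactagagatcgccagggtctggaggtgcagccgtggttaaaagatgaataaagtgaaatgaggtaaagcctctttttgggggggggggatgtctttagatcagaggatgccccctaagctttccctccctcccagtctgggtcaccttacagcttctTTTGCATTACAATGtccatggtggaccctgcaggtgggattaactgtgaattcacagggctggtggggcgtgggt
Pou5f1, chr17:35505782-35506031: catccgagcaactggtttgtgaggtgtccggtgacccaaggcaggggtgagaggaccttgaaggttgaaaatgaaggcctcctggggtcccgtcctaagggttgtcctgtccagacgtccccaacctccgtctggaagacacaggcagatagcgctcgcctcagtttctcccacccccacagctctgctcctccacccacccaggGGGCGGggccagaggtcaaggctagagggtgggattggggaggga
Sox2, chr3:34649745-34649994: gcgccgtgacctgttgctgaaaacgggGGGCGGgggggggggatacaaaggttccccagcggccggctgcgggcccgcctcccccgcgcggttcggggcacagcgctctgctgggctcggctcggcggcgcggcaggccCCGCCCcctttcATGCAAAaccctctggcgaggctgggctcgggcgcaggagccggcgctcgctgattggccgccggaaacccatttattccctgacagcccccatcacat
Tfcp2l1, chr1:118627695-118627944: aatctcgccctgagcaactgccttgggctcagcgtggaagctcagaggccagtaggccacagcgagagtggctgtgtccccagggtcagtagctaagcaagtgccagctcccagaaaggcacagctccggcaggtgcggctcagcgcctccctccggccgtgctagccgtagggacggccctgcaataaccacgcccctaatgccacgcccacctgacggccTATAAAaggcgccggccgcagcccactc

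Each motif was searched on both strands. Positions count from the RefSeq start that follows each window, which need not be the annotated gene start. The Sox2 window ends at 34649994, while the annotated gene starts at 34650405. The OCT4-SOX2 composite element, the SOX core CATTGT and the octamer core ATGCAAA with any single base between them, was matched in the Nanog window alone of the 4, in reverse orientation from position -75 to -62 relative to the start, and in 2 of all 32851 windows in the table (0.00609%). Its parts overlap it: the octamer core, found in 4.12% of all windows, was matched in Nanog within the composite element and in Sox2 from -99 to -93, and the SOX core (10.7% of windows) in Nanog, again within the element. The TATA box TATAAA (12.4% of windows) was matched in Tfcp2l1 from -28 to -23. The GC box GGGCGG (32.7% of windows) was matched once in Pou5f1, from -45 to -40, and at 2 places in Sox2. The Sox2 window was the richest of the 4 in G and C, at 72% against a median of 52.4% over all windows, and Nanog was the poorest at 52%. The shares are of windows and not of genes, and Nanog has 2 windows in the table. Whether the other composite match lies in the other Nanog window was not read. A match describes these letters and is not evidence of binding, and a motif without a match is only absent from this window in this spelling.

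Estimated counts summed to 11420425 in replicate 1, 6467405 in replicate 2 and 5787357 in replicate 3. Replicate 3 stood apart: the biological coefficient of variation over 12577 genes was 0.162 with all replicates and 0.0906 over 13608 genes without it, so the levels and spreads that it moved most are also given without it. The 7 genes together held 35210, 19730 and 14750 counts. Their share was 0.308% (Wilson 95% interval 0.305 to 0.312) in replicate 1, 0.305% (0.301 to 0.309) in replicate 2 and 0.255% (0.251 to 0.259) in replicate 3, intervals that cover counting error only. Of 10 embryonic stem cell markers outside the 7 genes, each reached a mean TPM of 1, as 44.2% of protein-coding genes did. The markers were chosen with earlier results of these data known, so this describes the labelled cell type and does not test it. TPM, the authors' unit, divides a count by transcript length and gives all libraries an equal total.

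All 7 genes reached a mean TPM of at least 1, a level met by 19.8% of all genes and 44.2% of protein-coding genes. The set was uneven. Nanog and Pou5f1 together made up 77.3% ± 3.17 (SD, n = 3) of the summed TPM of the 7 genes, Sox2 and Tfcp2l1 lay several times lower, Sall4 and Tbx3 lower again, and Prdm14 lowest. The median log2(TPM + 1) of the 7 exceeded that of the 11000 expressed genes (mean TPM of at least 1) by 2.39, 2.35 and 1.80 in replicates 1, 2 and 3.

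**Figure D1:**
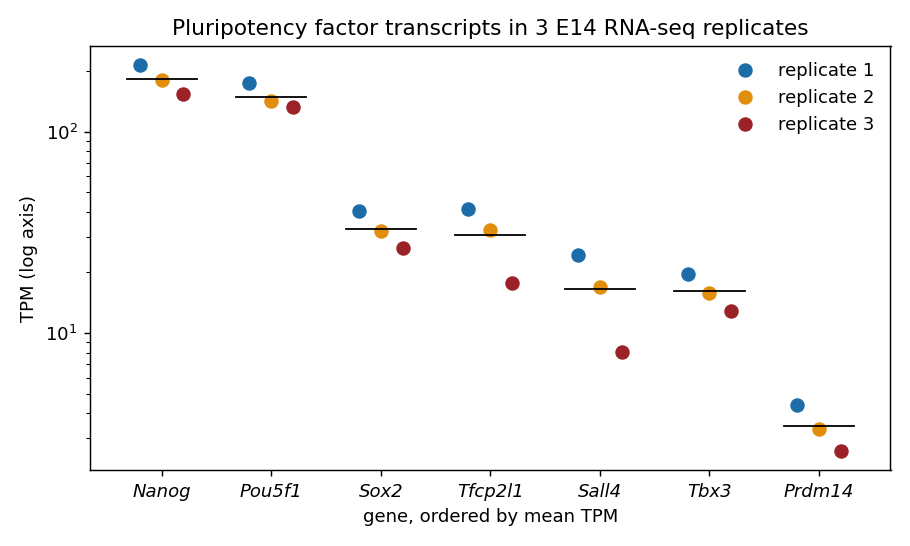
TPM (log axis) of the 7 genes in each replicate, with a line at the mean of the 3. Nanog, from 154 to 213, and Pou5f1, from 132 to 174, lie above the other 5 genes in every replicate, and Prdm14, from 2.60 to 4.39, lies below.

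Nanog (ENSMUSG00000012396, chromosome 6, 122707489 to 122714633, forward strand), which encodes a homeodomain protein, had the highest level. It had 213, 181 and 154 TPM in replicates 1, 2 and 3, from 11989, 7094 and 6039 counts. Its mean of 183 ± 29.9 TPM (SD, n = 3) was rank 134 among protein-coding genes.

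Pou5f1 (ENSMUSG00000024406, chromosome 17, 35506018 to 35510772, forward strand), which encodes the POU-domain protein OCT4, had 174, 142 and 132 TPM, with a mean of 149 ± 21.7 TPM (SD, n = 3). Nanog lay above Pou5f1 in 3 of 3 libraries, by 0.30, 0.36 and 0.22 on the log2 TPM scale, although their ranges over libraries overlapped.

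Sox2 (ENSMUSG00000074637, chromosome 3, 34650405 to 34652461, forward strand), which encodes the HMG-box partner of OCT4, had 40.4, 32.01 and 26.3 TPM, with a mean of 32.9 ± 7.08 TPM (SD, n = 3). The partners were not equal in transcript level. Pou5f1 exceeded Sox2 by 2.19 ± 0.12 (SD, n = 3) on the log2 TPM scale, or 4.57-fold, and no value of either gene fell in the range of the other.

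Tfcp2l1 (ENSMUSG00000026380, chromosome 1, 118627945 to 118685168, forward strand), which encodes a CP2-family factor acting downstream of LIF and GSK inhibition, had 41.5, 32.4 and 17.7 TPM. Its mean was 30.5 ± 12.0 TPM (SD, n = 3), and 36.9 TPM without replicate 3. It lay slightly above Sox2 in replicates 1 and 2 and below it in replicate 3.

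Sall4 (ENSMUSG00000027547, chromosome 2, 168748332 to 168767943, reverse strand), which encodes a zinc-finger protein that interacts with OCT4 and NANOG, had 24.4, 16.9 and 8.06 TPM. Its mean was 16.5 ± 8.18 TPM (SD, n = 3), and 20.7 TPM without replicate 3. Relative to its mean, its spread in TPM was the widest of the 7, with a coefficient of variation of 49.7%. Replicate 3 was low and replicate 1 high.

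Tbx3 (ENSMUSG00000018604, chromosome 5, 119670669 to 119684724, forward strand), which encodes a T-box factor, had 19.6, 15.9 and 12.8 TPM and a mean of 16.1 ± 3.40 TPM (SD, n = 3). Sall4 lay above it in replicates 1 and 2 and below it in replicate 3, so this pair has no stable order.

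Prdm14 (ENSMUSG00000042414, chromosome 1, 13113457 to 13127163, reverse strand), which encodes a PR-domain protein that holds down DNA methyltransferase and FGF receptor genes, was the lowest of the 7. It had 4.39, 3.33 and 2.60 TPM from 289, 153 and 120 counts, with a mean of 3.44 ± 0.90 TPM (SD, n = 3). The counts limit its precision most: its level in CPM (counts scaled to library total, without length) was 25.3 (Wilson 95% interval 22.6 to 28.4) in replicate 1, 23.7 (20.2 to 27.7) in replicate 2 and 20.7 (17.3 to 24.8) in replicate 3. In bulk RNA, a gene on in few cells and a gene low in every cell cannot be told apart.

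Among the expressed genes, Nanog stood at percentile 97.5, 97.4 and 97.0 of TPM in replicates 1, 2 and 3, and Pou5f1 at 97.1, 96.9 and 96.7. Sox2 stood at 89.9, 89.5 and 89.0. Tfcp2l1 stood at 90.1, 89.7 and 84.4, and Sall4 at 83.5, 81.0 and 67.6, both lowest in replicate 3. Tbx3 lay between 78.7 and 79.9 and Prdm14 between 32.8 and 35.2, so the lowest factor was below the middle of the expressed genes.

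Of the 21 pairs of the 7 genes, 16 had TPM ranges that did not overlap and 19 kept the same order in all 3 libraries. The neighbours in the order by mean TPM whose ranges overlapped were Nanog with Pou5f1, Sox2 with Tfcp2l1, Tfcp2l1 with Sall4 and Sall4 with Tbx3, and Tfcp2l1 also overlapped Tbx3. The 2 pairs that changed order were Sox2 with Tfcp2l1 and Sall4 with Tbx3, both through replicate 3. The exact two-sided sign-flip permutation test of a log2 ratio over 3 libraries cannot give a p below 0.25, and after Benjamini-Hochberg adjustment over the 21 pairs the smallest exact p was 0.276. No pair could therefore pass a threshold of 0.05.

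Ratios taken inside each library were steadier than the levels for some pairs. Sox2 exceeded Tbx3 by 1.04, 1.01 and 1.04 on the log2 TPM scale in replicates 1, 2 and 3, a ratio of 2.05. Nanog exceeded Tbx3 by 3.51 ± 0.07 (SD, n = 3) and Sox2 by 2.48 ± 0.07 (SD, n = 3). The widest gap, between Nanog and Prdm14, was 5.75 ± 0.14 (SD, n = 3), or 53.9-fold. Ratios with Sall4 or Tfcp2l1 varied most: Pou5f1 exceeded Sall4 by 2.83, 3.07 and 4.03, a mean of 3.31 that was 2.95 without replicate 3. Length scaling set part of the order. In CPM, which lacks it, Tfcp2l1, the longest of the 7 at 9180 nt on average, had 900, 862 and 520 and lay second by mean, against 502, 503 and 528 for Pou5f1.

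TPM was highest in replicate 1 and lowest in replicate 3 for 7 of 7 genes. This order was common: 67.2% of 11000 expressed genes had a lower TPM in replicate 2 than in 1 and in 3 than in 2, and replicate 3 was the lowest for 75.6%. Scaled instead by TMM, which sets library scale from the bulk of genes, 4 of 7 genes had this order, against 23.5% of 10486 genes, and the same 4 were lowest in replicate 3, against 39.2%. Nanog, Pou5f1 and Sox2 were highest in replicate 3 on that scale and lowest there in TPM. Genes with effective length under 100 nt took up 60.3%, 65.8% and 63.9% of TPM in replicates 1, 2 and 3.

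On the TMM scale, 5 of the genes had a coefficient of variation of at most 10.2%. Sox2 had 175, 174 and 180.2 CPM in replicates 1, 2 and 3, a coefficient of variation of 1.86%. Tbx3 had 196, 187 and 184, Prdm14 24.1, 22.9 and 22.5, Nanog 999, 1063 and 1131, and Pou5f1 478, 487 and 572. Tfcp2l1 and Sall4 varied more, by 21.7% and 30.2%: Tfcp2l1 had 856, 835 and 563, and Sall4 205, 188 and 110.2. For both, replicates 1 and 2 lay close together and replicate 3 was low. Without replicate 3, a choice made after seeing the data, the coefficient of variation was 1.77% for Tfcp2l1 and 6.34% for Sall4, and that of Pou5f1 was 1.34% in place of 10.2%. For Sox2 it was 0.540%, and for Nanog 4.395%.

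In edgeR's goodness-of-fit test for replicate spread beyond that of genes of similar abundance, 0 of 7 genes passed the threshold of 0.05 after Benjamini-Hochberg adjustment over all genes, where 1.84% of the 12577 genes tested did. The test had little power here: on simulated data it recovered 5 of 50 genes changed 2-fold in 1 library. The largest TMM-scaled ratio between replicates among the 7 was 1.86, for Sall4. A count of 0 therefore does not show that the genes were steady. Sall4 was the 1 gene of the 7 with an unadjusted p under 0.05 (0.0241), and its adjusted p by edgeR was 0.483. The adjusted p of Sall4 ran from 0.443 to 0.999 over the alternatives. The count for the 7 was also 0 with DESeq2's size factors (1.84% of all genes tested), without the filter (1.19%), with a common dispersion (1.86%) and after a length correction (1.53%), as it was without replicate 1 (0.709%), replicate 2 (0.474%) or replicate 3 (0.683%). The drop of Sall4 in replicate 3 from the mean of the others was 0.83 on the log2 scale, and 4.19% of the 12577 genes dropped as far or further. For Tfcp2l1 the drop was 0.59, reached by 9.01% of genes. Without replicate 3, the unadjusted p of Sall4 by edgeR was 0.464.

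Replicate 3 was lower for long genes in general, and the values beside length are as follows. The smooth trend, over the 8297 genes that averaged 100 counts or more, put replicate 3 at -0.20 (log2, against the gene's own mean) at the length of Tfcp2l1 and at -0.08 at that of Sall4, whose measured deviations were -0.39 and -0.55. Pou5f1, the shortest of the 7, deviated by 0.16 where the trend was 0.08. After the trend was subtracted, replicate 3 of Tfcp2l1 lay at -0.19 and that of Sall4 at -0.47, and the largest of the other 5, that of Nanog, at 0.08.

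**Figure D2:**
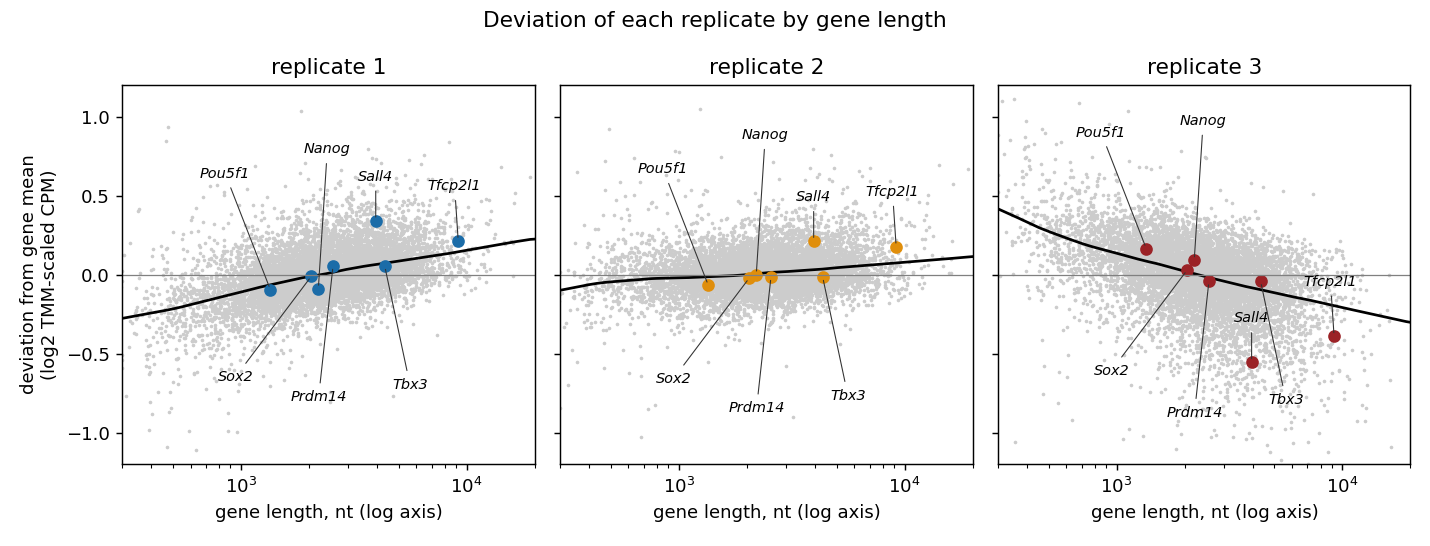
Deviation of a gene's level in 1 replicate from its own mean (log2 TMM-scaled CPM) against gene length in nt (log axis), for genes averaging 100 counts or more in grey, with the smooth trend as a black line and the 7 genes as coloured points. In replicate 3, Sall4 at -0.55 and Tfcp2l1 at -0.39 lie below the trend, while the others lie near it (4, 13 and 24 genes in replicates 1, 2 and 3 lie beyond the vertical axis limit of 1.2).

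The length that the tables give for a gene is an average over its transcripts weighted by their estimated abundance, and so it carries the isoform mix. Pou5f1 was listed at 1356, 1355 and 1351 nt, close to its longest annotated transcript of 1362 nt among 6, whose other lengths run from 435 to 994 nt. Nanog was listed at 2209, 2208 and 2204 nt, beside a longest transcript of 2211 nt. Tfcp2l1 was listed at 9269, 9207 and 9065 nt, where its only coding transcript has 9269 nt and a second, noncoding one 478 nt.

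Sall4 and Tbx3 had mixed averages. Sall4 was listed at 3859, 4048 and 3978 nt, while its 7 annotated transcripts have 5073, 3741 and 2534 nt and, for the other 4, at most 773 nt. Tbx3 was listed at 4569, 4288 and 4163 nt, below its 3 coding transcripts of 4777 to 4982 nt, so its noncoding transcripts, of 485 to 2995 nt, took a share of the estimate in each replicate. Sox2 and Prdm14 have 1 transcript each, of 2057 and 2564 nt. Isoform abundances themselves were not used here.

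Each factor was next set beside the other genes of its family, whose proteins bind related DNA sequences. Nanog was left out for want of a family list. Beside the counts of family genes below, 44.2% of protein-coding genes reached a mean TPM of 1. In 4 of 6 families the factor was the highest gene in every replicate: Pou5f1, Sox2, Sall4 and Tfcp2l1. Prdm14 and Tbx3 were not the highest of theirs.

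Among 14 other POU genes, 2 reached a mean TPM of 1. These were Pou2f3 at 10.98, 7.21 and 5.36 TPM in replicates 1, 2 and 3 and the broadly expressed Pou2f1 at 9.33, 8.84 and 4.98 TPM. Pou5f1 made up 89.3% ± 2.01 (SD, n = 3) of the summed TPM of the family. Pou3f1, which encodes the OCT6 protein of later epiblast and glia, was at 0.22, 0.17 and 0.10 TPM.

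Among 18 other SOX genes, 4 reached a mean TPM of 1 and the highest was Sox12 at 4.09, 2.98 and 1.89 TPM. Sox2 exceeded Sox12 by 3.11 ± 0.12 (SD, n = 3) in log2(TPM + 1). Of the SOX genes closest to Sox2 (group B1), Sox1 had 0.96, 0.75 and 0.49 TPM and Sox3 had 1, 1 and 2 counts, at or below a floor of 3 counts. Sox15, known in embryonic stem cells, had 2.09, 0.81 and 1.45 TPM.

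Sall1, the other spalt-like gene with a mean TPM above 1, had 14.7, 11.1 and 4.84 TPM, low in replicate 3 like Sall4. The difference between them, 0.63 ± 0.06 (SD, n = 3) in log2(TPM + 1), kept its sign in 3 of 3 libraries. Sall2 and Sall3 had mean levels of 0.30 and 0.70 TPM.

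Tfcp2l1 exceeded its closest relatives Ubp1 and Tfcp2, which are broadly expressed. Ubp1 had 16.4, 10.4 and 7.15 TPM, and Tfcp2l1 lay above it by 1.35 ± 0.18 (SD, n = 3) in log2(TPM + 1). Tfcp2 had a mean of 2.03 TPM. Grhl3, a grainyhead gene of epithelia, reached 3.25 TPM.

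Prdm14 was exceeded in mean TPM by other PR-domain genes, among them Prdm4 and Prdm2. Prdm4 had 10.8, 6.38 and 6.32 TPM, and the difference of Prdm14 from it was -0.97 ± 0.19 (SD, n = 3) in log2(TPM + 1). Prdm15, a factor known to act in naive pluripotency, had 2.19, 1.36 and 1.24 TPM, below Prdm14 in each replicate. Prdm1, known for germ cell specification together with Prdm14, had 1.27, 0.98 and 0.66 TPM.

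Of 16 other genes with a T-box, Mga alone reached a mean TPM of 1. MGA is a MAX partner that carries a T-box as a second DNA-binding domain, and it had 51.9, 36.6 and 28.4 TPM, above Tbx3 in every replicate. The classical T-box genes were low: Eomes had 0.97, 1.05 and 0.84 TPM, T had 2, 2 and 0 counts, and 7 of the 16 genes had no replicate above 3 counts.

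**Figure D3:**
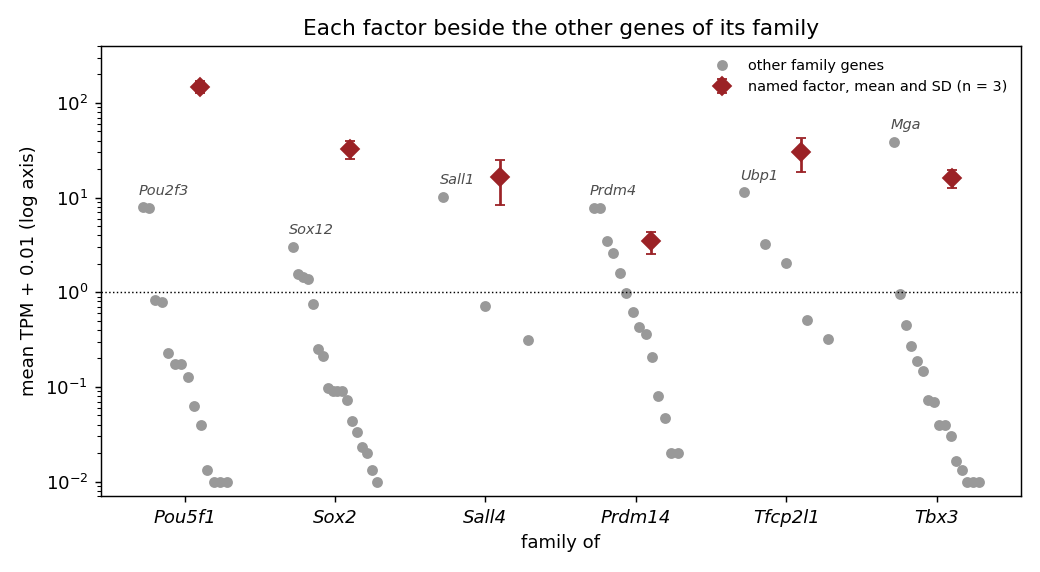
Mean TPM + 0.01 (log axis) of each factor (red diamonds, with the SD over 3 replicates) beside the other genes of its family (grey, ordered by level), with the highest of these named and a dotted line at a TPM of 1. Pou5f1, Sox2, Sall4 and Tfcp2l1 lie above their families, and Prdm14 and Tbx3 lie below Prdm4 and Mga.

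The rest of the pluripotency network was read from a list of 24 further transcription factors. Of these, 22 reached a mean TPM of 1, beside 44.2% of protein-coding genes. Zfp42, Esrrb and Klf4 on this list are also among the stem cell markers above. The median of the 24 was 9.92 TPM, against 30.5 TPM for the 7 factors and 5.67 TPM for all expressed genes. The highest was Zfp42 (REX1) at 68.2, 66.9 and 71.5 TPM, followed by Esrrb, a nuclear receptor, at 63.2, 50.03 and 37.3 TPM. Both lay below Nanog and Pou5f1 and, in every replicate, above Sox2. The 2 below a mean TPM of 1 were Gbx2 at 0.71, 0.69 and 0.84 TPM and Sp5, a WNT target, with 1 count in each replicate.

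The listed genes known to be controlled by OCT4 with SOX2 all reached a mean TPM of 1, as 44.2% of protein-coding genes did. Of the 8 on the list, 3 are among the 7 factors themselves. The other 5 were Zfp42, Fbxo15 at 50.1, 45.1 and 38.0 TPM, Fgf4, the growth factor of the inner cell mass, at 58.5, 41.7 and 29.7 TPM, Lefty1 at 9.60, 6.94 and 6.06 TPM, and Utf1 at 7.04, 6.10 and 5.01 TPM. All of these but Lefty1 are also among the stem cell markers above.

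Of 5 genes that PRDM14 is known to hold down, 4 reached a mean TPM of 1, beside 44.2% of protein-coding genes. The methyltransferase genes Dnmt3l, Dnmt3a and Dnmt3b had mean levels of 7.42, 4.73 and 3.30 TPM. Fgfr1 had 11.1, 7.19 and 5.14 TPM, while Fgfr2 had 0.42, 0.10 and 0.17 TPM. In mean TPM, Prdm14 itself lay between Dnmt3b and Dnmt3a. Its order with Dnmt3b was not stable. Prdm14 had 4.39, 3.33 and 2.60 TPM in replicates 1, 2 and 3, against 3.80, 3.32 and 2.78 for Dnmt3b.

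All 14 listed protein partners of the factors reached a mean TPM of 1, as 44.2% of protein-coding genes did. Their levels ran from 4.197 TPM for Arid3b to 173 TPM for Trim28, a corepressor. Cbfa2t2, the corepressor partner of PRDM14, had 20.2, 9.60 and 6.97 TPM, above Prdm14 in every replicate. Chd4, a subunit of the NuRD complex that SALL4 recruits, had 21.5, 17.4 and 10.9 TPM.

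The lineage factors of other fates were low. Of 12 such genes (among them Cdx2 of trophoblast, Gata6 of primitive endoderm and Pax6 of the neural lineage), 0 reached a mean TPM of 1. Of protein-coding genes, 44.2% reached it. Of the 12, 5 had no replicate above 3 counts. Cdx2 had 0, 1 and 0 counts. Eomes came closest to the limit, at a mean of 0.953 TPM, and passed it without replicate 3. Prdm14, the lowest of the 7 factors, lay above all 12 in every replicate.

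Markers of other cell types that the culture could hold were also counted, beside the 44.2% of protein-coding genes that reached a mean TPM of 1. Of 8 fibroblast markers, 1 reached a mean TPM of 1 (Thy1, at 3.02, 3.30 and 1.19 TPM), 4 had 0 counts in every replicate, including the collagen gene Col3a1, and their summed level ran from 1.79 to 4.57 TPM. Of 8 primitive endoderm markers, 1 did so (Lama1, at 6.12, 4.78 and 2.69 TPM), and of the defining factors Gata4 had 47, 19 and 12 counts, Gata6 3, 5 and 1, and Sox17 5, 2 and 1. Of 8 trophoblast markers, 0 did so, and their sum ran from 0.95 to 2.74 TPM. Of 10 primed epiblast markers, 5 did so, the highest being Nodal at 8.35, 5.68 and 5.80 TPM, while Fgf5 had 0 counts in every replicate, which at this depth allows up to 3 counts.

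**Figure D4:**
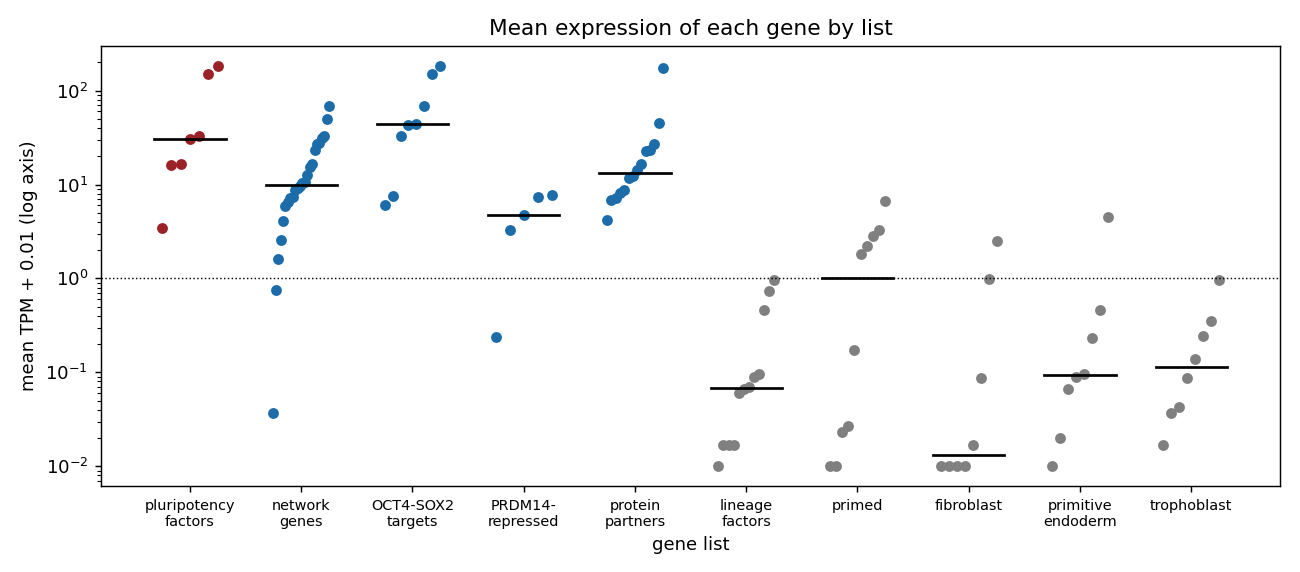
Mean TPM + 0.01 (log axis) of each gene by list, with a black line at the list's median and a dotted line at a TPM of 1. The 7 factors (red) have a median of 30.5 TPM and every gene among the lineage and trophoblast lists (grey) lies below 1. The OCT4-SOX2 target list holds Nanog, Pou5f1 and Sox2 as well.

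The loci were read for genes that could share reads with the factors. Sox2 lies inside Sox2ot, a long noncoding gene on the same strand, which had 32, 10 and 16 counts against 2104, 1161 and 962 for Sox2, and reads of the shared region cannot be assigned with certainty. On the opposite strand, Tbx3os1 overlaps the start of Tbx3 with 11, 9 and 3 counts, Gm14261 overlaps Sall4 with 5, 1 and 0 counts, and Gm19553 overlaps Pou5f1 with 0 counts in every replicate. Whether the counting used strand is not stated. The 3 small noncoding genes and pseudogenes inside Tfcp2l1 had at most 1.34 estimated counts. The Nanog pseudogene Nanog-ps1 had 2.44, 0 and 1.24 estimated counts, and Nanog-ps2 had 0.

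By mean TPM the factors ranked from 134 (Nanog) to 6563 (Prdm14) among 21897 protein-coding genes, so most such genes lie below each factor. The count for neighbours is therefore a description and not a result about the loci. The protein-coding neighbours on either side, 14 genes in all, had a lower mean TPM than their factor in 12 cases. The exceptions were the glucose transporter gene Slc2a3, 13176 bp beyond Nanog, at 332, 276 and 186 TPM, and Ncoa2, 11942 bp from Prdm14, at 5.03, 3.23 and 2.59 TPM. Ncoa2 lay above Prdm14 in replicate 1 and slightly below it in replicates 2 and 3, so its higher mean of 3.62 TPM rested on replicate 1. Dppa3, on the other side of Nanog at a distance of 77217 bp, had 0.42, 0.54 and 0.45 TPM, far below either Nanog or Slc2a3. Tcf19, 1962 bp beyond Pou5f1 and on the opposite strand, had 4.15, 2.66 and 2.96 TPM. Tbx5, the next gene after Tbx3 on the same strand and a T-box gene of heart and forelimb, had 0, 1 and 0 counts.

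The genes closest to each factor in level across the 3 replicates were found by distance in log2(TPM + 1) among 7874 other protein-coding genes averaging 100 counts or more. Nanog lay nearest to Rpl28 (distance 0.14) and Tubb5, Pou5f1 to Cct8 (0.04) and Matr3, and Sox2 to Ociad1 (0.04) and Cars. Among the genes nearest to Sall4 was Ap2a1 (0.15), at 25.3, 18.3 and 8.70 TPM. Tfcp2l1 lay nearest to Ccni (0.13), at 43.7, 34.6 and 18.6 TPM, and Tmbim6. Tbx3 lay nearest to Mllt10 (0.02) and Pcbp4, and Prdm14 to Mvp (0.05) and Slc27a4. None of the genes named here is on the lists used, and over 3 replicates such a likeness describes level and library scale alone.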

How the data were processed

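RNA-seq of 3 replicates was analysed, numbered and grouped from the sample titles. Ribosomal RNA was removed from total RNA before directional library preparation, per the labels' protocols. STAR and RSEM are among the tools, and mm10 is the build, named in the submitters' processing notes, without versions. Annotation release and strand setting are not given in the sources used here. Per the file headers, the authors deposited for each gene an estimated count without normalization, a TPM value, an FPKM value, and a length and effective length in nt (an "other" unit). RSEM divides reads that fit several genes, and a change in very short genes moves the TPM of all others.

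From these files, gene names and coordinates were matched by Ensembl ID to GENCODE vM21 (GRCm38), for 55141 of 55487 genes. TPM was used as deposited, on a log2(TPM + 1) scale for differences, and FPKM only as an alternative. Estimated counts were rounded for edgeR 4.0.16 in R 4.3.3 (TMM, filterByExpr, an intercept-only design, goodness-of-fit under the trended dispersion, Benjamini-Hochberg adjustment). On simulated data of 12549 genes for this replicate test, 5 of 50 genes changed in 1 library were recovered at 2-fold, 43 at 4-fold, and 50 at both 8-fold and 16-fold, with 1 false call. Intervals are Wilson 95%. All else was computed in Python 3.11.15 (pandas 2.3.3, numpy 2.4.6, scipy 1.17.1), with figures from matplotlib 3.10.9. Alternatives changed the TPM denominator, length scaling, pseudocount, filters, size factors (DESeq2 1.42.0), dispersion, a length correction and the replicates used.

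The members and gene lists were chosen with earlier results of these data known. The genes named are the 7 factors, the listed genes, the 2 nearest genes in level, pseudogenes named after a factor, and overlapping or neighbouring genes. Some genes that meet this rule are not reported here. The 7 R-loop samples are not analysed here.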

Additional observations from a re-analysis of the deposited data

How the results depend on the processing

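Levels depend on what shares the TPM total. The median of the 7 genes, 30.5 TPM, became 82.8 TPM without genes of effective length under 100 nt and 153 TPM over protein-coding genes alone. These changes multiply every gene of a library alike, by 2.52, 2.93 and 2.77 in the first case (1.33, 1.55 and 1.47 in log2) and by 4.37, 5.37 and 5.77 in the second. They leave ratios inside a library unchanged. Over protein-coding genes alone Pou5f1 had 761 ± 2.05 (SD, n = 3), with replicate 3 highest. The excess of the 7 genes over expressed genes, 2.18 in log2, was 4.199 against all genes with any count, 1.19 against genes whose mean TPM was 5 or more, and 3.34 in CPM without length scaling, as the comparison genes or the scale changed. The number of lineage factors counted as expressed, 0, became 2 at a mean TPM of 0.5 and 3 at a CPM of 1. Over the fits that each left out 1 replicate it was from 0 to 1, the 1 being Eomes without replicate 3, where fibroblast markers numbered 2 in place of 1 and trophoblast markers 1 in place of 0. Non-overlapping pairs numbered 17 in CPM, 19 in FPKM and 16 to 19 with a replicate left out. With FPKM and with counts per kilobase of annotated length, the mean of Tbx3 lay above that of Sall4. Over 41 alternatives of the 7 main results, 8 moved the value and 0 reversed its direction. Member order was scored there only by the number of non-overlapping pairs, so a change of order was not counted. In CPM the order by mean did change, to Nanog, Tfcp2l1, Pou5f1, Tbx3, Sox2, Sall4 and Prdm14. No gene of the 7 was called in the replicate test under any of its 7 alternatives. In its main setting that test recovered few 2-fold changes on simulated data, so these counts do not show steadiness. The count of genes called among all tested was 63, 89 and 93 without replicates 2, 1 and 3, and 193 after the length correction. Depth limits Prdm14 and genes near 3 counts, which correspond to 0.263, 0.464 and 0.518 CPM. No paired analysis was possible because a single group was analysed.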
